A study of Mus musculus with 12 samples.

Results

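The comparison described here set BV-2 microglia that received luteolin together with lipopolysaccharide (LPS) against BV-2 microglia that received LPS alone. It covers 6 of the 12 arrays of the series, 3 labelled LPS and luteolin and 3 labelled LPS, and was read with the replicate number from the array titles (1, 2 or 3) as a block, over all 12071 genes that passed a filter on signal out of 18194 genes measured. LPS was given at 50 ng/ml and luteolin at 50 µM, for 24 h. The other 6 arrays hold untreated control cells and cells given 50 µM luteolin alone for 24 h, which are called resting cells below. They entered the fit to share 1 estimate of the spread and served for the luteolin difference without LPS. BV-2 is an immortalised mouse microglial line, so all 12 arrays come from the same line, and the methods describe 3 independent stimulation experiments. Luteolin was dissolved in DMSO, and the labels describe the control cells as untreated. The extraction label names a different cell line from the treatment and growth labels, which both name BV-2.

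LPS, a component of the outer membrane of Gram-negative bacteria, is sensed by microglia through Toll-like receptor 4. The receptor signals through MyD88 to NF-kappaB and MAP kinases, which drive cytokine genes, and through TRIF to interferon regulatory factors, which start the secretion of interferon beta and with it a second wave of interferon-induced genes. Luteolin is a plant flavonoid known for dampening inflammatory gene expression in macrophages and microglia, for inhibiting several protein kinases, and for inducing antioxidant enzymes through the transcription factor NRF2.

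Of 20 measured microglial identity genes, 16 had a mean signal of 50 or more in LPS and 15 in luteolin + LPS. The counts were 1 and 2 of 9 neuron markers, 3 and 3 of 8 astrocyte markers, 4 and 4 of 7 oligodendrocyte markers, and 2 and 1 of 12 fibroblast and endothelial markers. The summed signal of the microglial genes was 32033 to 36614 in LPS and 29816 to 40204 in luteolin + LPS, and that of the neuron markers was 384 to 419 and 383 to 421. Cd68, Csf1r and Ptprc had the largest signals of the microglial genes, with LPS means of 15381, 6651 and 5867. P2ry12, Tmem119, Cx3cr1 and Fcrls lay near 50 in LPS (48.5, 58.5, 54.6 and 50.7). The astrocyte sum moved most, with 2099 to 3609 in LPS and 1393 to 2776 in luteolin + LPS, ranges that overlap, and its part in the results was not tested. Most of it came from Aldoc, with 3262, 2537 and 1792 in LPS and 2467, 1071 and 2356 in luteolin + LPS. No other astrocyte marker exceeded 78.4 on these arrays. The oligodendrocyte sum was 361 to 457 and 370 to 446, and the fibroblast and endothelial sum 354 to 384 and 350 to 394. Array medians ran from 52.2 to 56.4 signal units, and arrays of the same group correlated at 0.978 to 0.997 across probe sets. The 3 luteolin + LPS arrays differed widely in the level of interferon-induced genes. The geometric mean signal of 31 interferon-induced genes was 1601, 141 and 450 in luteolin + LPS replicates 1, 2 and 3, against 2067, 859 and 1204 in LPS, and 160 to 175 in the control arrays. Replicate 2 of the joint treatment was thus below every control array on this measure, whereas replicate 1 lay within the range of the LPS arrays. LPS replicate 1 had the highest interferon-induced level of its group and, in a fit that estimates array weights, the lowest weight of all arrays (0.189, next to 0.279 for luteolin + LPS replicate 2). Results are given with and without luteolin + LPS replicate 2. In bulk RNA from a culture, fewer cells of a kind and less RNA per cell cannot be told apart.

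Promoter windows of 4 called genes, picked by hand, are shown because each holds letters associated with a pathway described below. A match in a single window does not mean that the genes of that pathway changed as a set. The windows run from 250 bases before to 50 bases after the RefSeq gene start in GRCm38.p6 and are written 5′ to 3′ on the strand of the gene. Capitals mark the interferon-stimulated response element letters GAAANNGAAA in Ifitm3 (chr7:141010695-141010994, minus strand) and Gbp3 (chr3:142559794-142560093, plus strand), the antioxidant response element letters TGACNNNGC in Gclm (chr3:122245307-122245606, plus strand), and the amino acid response element letters TGATGNAA in Nupr1 (chr7:126625421-126625720, minus strand), searched on both strands. In Gbp3, 2 matches on the reverse strand overlap in a single capital run, and in Ifitm3 both matches lie just after the annotated start.
Ifitm3: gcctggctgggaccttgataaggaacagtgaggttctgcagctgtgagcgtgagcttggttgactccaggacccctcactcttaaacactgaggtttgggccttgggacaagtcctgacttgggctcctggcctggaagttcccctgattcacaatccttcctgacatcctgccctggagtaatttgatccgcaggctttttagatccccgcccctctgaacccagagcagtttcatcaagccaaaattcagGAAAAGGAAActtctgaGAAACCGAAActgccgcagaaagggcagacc
Gbp3: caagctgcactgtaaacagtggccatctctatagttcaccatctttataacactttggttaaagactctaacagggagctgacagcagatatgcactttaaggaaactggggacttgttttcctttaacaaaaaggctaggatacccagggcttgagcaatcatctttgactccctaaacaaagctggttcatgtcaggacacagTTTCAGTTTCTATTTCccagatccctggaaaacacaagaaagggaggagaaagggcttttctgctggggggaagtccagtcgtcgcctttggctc
Gclm: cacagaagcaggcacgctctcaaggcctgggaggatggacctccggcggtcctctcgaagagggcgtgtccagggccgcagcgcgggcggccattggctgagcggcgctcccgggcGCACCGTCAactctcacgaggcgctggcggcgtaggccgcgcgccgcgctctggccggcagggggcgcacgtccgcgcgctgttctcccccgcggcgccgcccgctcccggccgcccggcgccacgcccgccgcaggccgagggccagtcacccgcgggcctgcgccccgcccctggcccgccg
Nupr1: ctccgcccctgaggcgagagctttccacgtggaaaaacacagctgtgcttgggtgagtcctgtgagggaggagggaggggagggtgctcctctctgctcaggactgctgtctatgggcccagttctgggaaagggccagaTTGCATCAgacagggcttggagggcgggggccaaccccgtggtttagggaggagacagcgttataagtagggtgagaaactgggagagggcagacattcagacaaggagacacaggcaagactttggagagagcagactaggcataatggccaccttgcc
A window was at hand for 9757 of the 12071 genes tested, and the first listed start was used for each. GAAANNGAAA was found in 2.91% of these windows, in 14 of 265 windows of genes lower in luteolin + LPS (5.28%), in 9 of 74 windows of the lower genes with a log2 fold change below -1 (12.2%), and in 5 of 192 windows of higher genes (2.6%). It was present in 10 of 21 windows of the interferon response list. TGACNNNGC occurred in 14.6% of all windows, 14.0% of those of lower genes, 16.2% of those of higher genes, and 5 of 20 windows of the NRF2 list. The kappaB letters GGGNNTTTCC were in 1.63% of all windows, 1.13% of the lower and none of the 192 higher windows, the gamma-activated site letters TTCNNNGAA in 6.81%, 6.79% and 5.73%, and TGATGNAA in 2.22%, 3.77% and 4.69%. These shares describe letters in short windows and say nothing of which factor was bound.

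In LPS-activated microglia, 343 genes were called lower and 235 higher with luteolin. The lower genes are 2.84% and the higher genes 1.95% of the 12071 tested (limma with the replicate number as block, Benjamini-Hochberg adjusted p under 0.05, 6 residual degrees of freedom), and 2722 genes had an unadjusted p under 0.05. With no replicate block, 43 lower and 18 higher genes were called. Only the 6 arrays compared, with the block, gave 4 and 0. Leaving out all arrays of replicate number 2 gave 1 lower and 0 higher genes, and leaving out number 3 gave 2 and 0. Decreases were larger than increases. Log2 fold changes of single genes ran from -4.91 to 1.92, with 193 genes below -1, of which 97 were called, and 51 above 1, of which 31 were called. The median log2 fold change was -0.79 over the called lower genes and 0.67 over the called higher genes, and the median over all genes tested was 0.02. All 3 arrays of luteolin + LPS lay below all 3 of LPS for 970 genes and above them for 971 genes, each 8.04% of the genes tested. Among the called genes, the arrays were apart for 274 of 343 lower and 194 of 235 higher genes. Genes named below for the largest changes were chosen among called genes whose arrays were apart. Their lack of overlap is thus part of the choice and adds no support.

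Without luteolin + LPS replicate 2, 76 genes were lower (0.63%) and 35 were higher (0.29%). Of these, 68 and 28 were also called with all arrays, and 8 and 7 were called only without it. Over the 343 and 235 genes called with all arrays, the median log2 fold change without that array was -0.71 and 0.61. The genes called with all arrays had the same sign in all 3 replicate numbers, so the call itself fixed their direction when 1 array was left out. The fit without that array had 5 residual degrees of freedom. The counts also depended on the LPS arrays, since 46 lower and 34 higher genes were called without LPS replicate 2, and 49 and 14 without LPS replicate 3, against 416 and 190 without LPS replicate 1. The difference between both treatments varied with the replicate number. For number 1, 258 genes had a log2 difference below -1 and 352 above 1, for number 2 the counts were 608 and 181, and for number 3 they were 172 and 68. Across genes, which are not independent replicates, the differences of numbers 2 and 3 correlated at 0.573, those of 1 and 2 at 0.359 and those of 1 and 3 at 0.345.

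**Figure D1:**
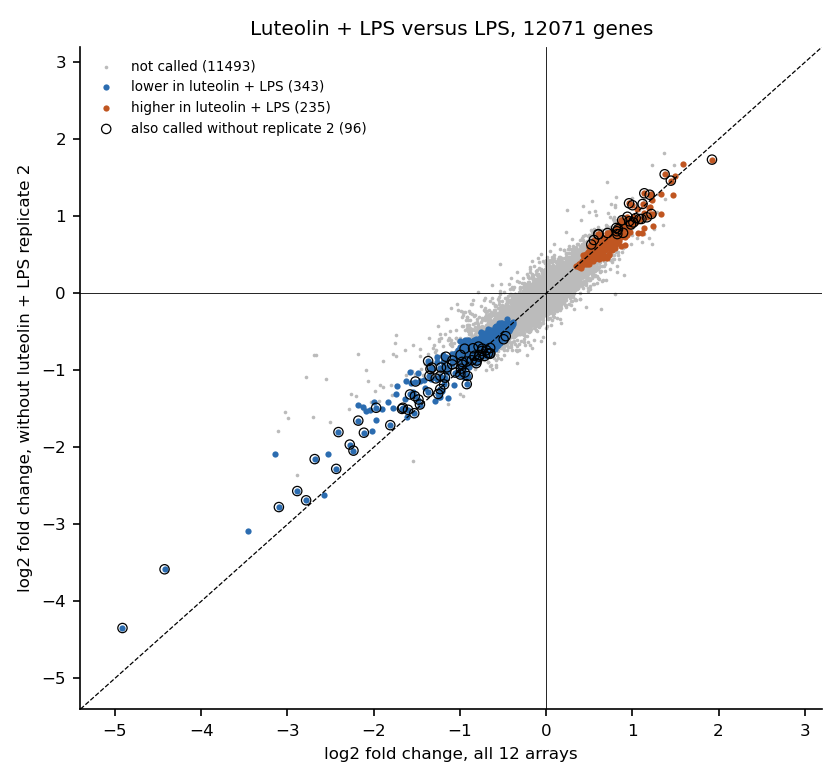
Each point is 1 of 12071 genes, with its log2 fold change of luteolin + LPS over LPS from all 12 arrays (x axis) and from the 11 arrays without luteolin + LPS replicate 2 (y axis), the dashed line marking equal values. Blue and orange points are the 343 lower and 235 higher genes, black rings the 68 lower and 28 higher genes also called without that array, and several of the lowest genes, Ifitm3 and AA467197 among them, lie above the dashed line, that is, their decreases are smaller without it, whereas Mx1 lies on it.

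Ifitm3 and AA467197 had the largest decreases. Ifitm3, which interferon induces and which blocks the entry of viruses at membranes, had signals of 5903, 2258 and 1444 in LPS replicates 1, 2 and 3 and of 179, 46.9 and 83.9 in luteolin + LPS. All 3 joint arrays lay far below all LPS arrays, replicates 2 and 3 near the mean of 51.2 in control cells and replicate 1 above it. The decrease was 30.1-fold (log2 fold change -4.91 ± 0.60 SE, adjusted p = 0.0068), and it was -4.35 without luteolin + LPS replicate 2 (adjusted p = 0.027). The transcript AA467197 had signals of 1063, 1218 and 1926 in LPS and 97.6, 20.9 and 123.5 in luteolin + LPS. Its log2 fold change was -4.43 ± 0.61 (SE, adjusted p = 0.011), and -3.58 without replicate 2 (adjusted p = 0.021). Both genes were called with and without that array, Ifitm3 in 21 and AA467197 in 18 of 23 alternative analyses. Many of these alternatives leave the LPS and joint arrays as they are. Among other called genes named below, this count ran from 4 for Dusp14 and Msr1 to 22 for Gm9706.

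**Figure D2:**
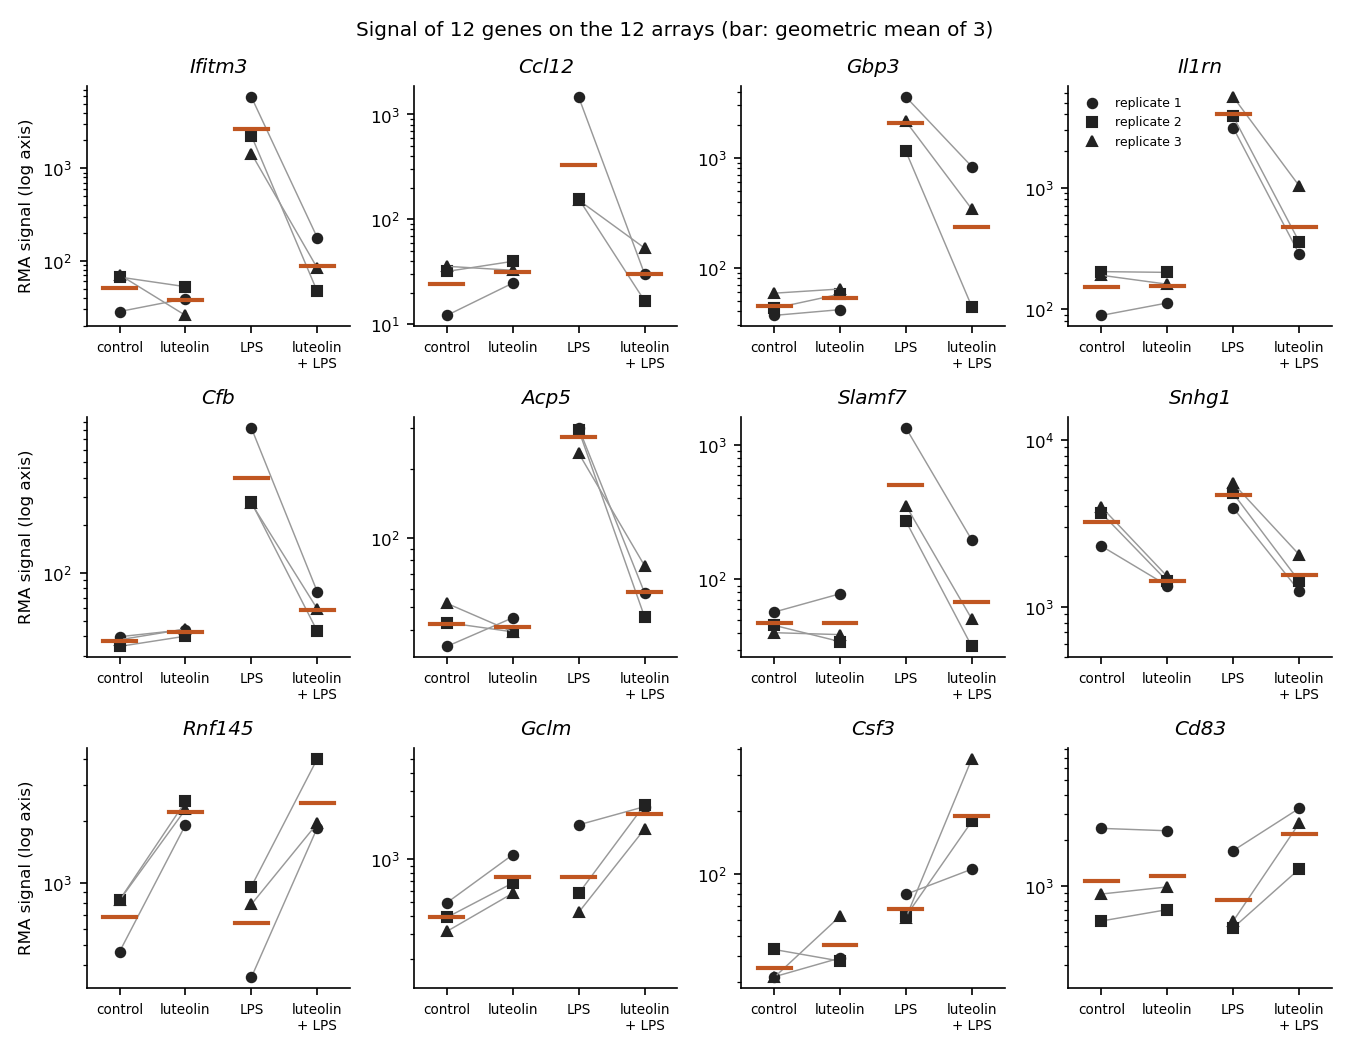
RMA signals (log axis) of 12 genes on the 12 arrays, with symbols for replicate numbers 1 to 3, grey lines joining arrays of the same number with and without luteolin, and orange bars for the geometric mean of 3 arrays. Ifitm3, Ccl12, Gbp3, Il1rn, Cfb, Acp5 and Slamf7 fall towards the control level in luteolin + LPS, Snhg1 and Rnf145 shift the same way with and without LPS, and Gclm, Csf3 and Cd83 are higher in luteolin + LPS.

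The interferon response list had a large median and few calls. Of its 31 tested genes, 30 were below 0 on the log2 scale with a median of -1.40. Of these, 1 gene, Mx1, was called lower, a share near the 2.84% of all genes. The median was -0.18 for replicate number 1, -2.29 for number 2 and -1.30 for number 3, and it was -0.65 without luteolin + LPS replicate 2, where none was called. The medians of the 3 numbers had an SD of 1.05. Mx1, a dynamin-like GTPase that blocks influenza viruses, had signals of 317, 38.0 and 46.7 in LPS and 20.8, 11 and 11.7 in luteolin + LPS. The LPS values of replicates 2 and 3 and all joint values were under 50 signal units, and the log2 fold change of -2.58 (adjusted p = 0.034) was -0.89 with signals under 50 set to 50 and -2.62 without luteolin + LPS replicate 2 (adjusted p = 0.097). The other 30 genes of the list did not pass the test.

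The IFITM and schlafen families held 3 lower genes of 11 tested (2.84% of all genes were lower), all called with and without replicate 2, with a median of -0.84 over the list. Slfn4 and Slfn5, members of a family that restrains growth of immune cells, followed Ifitm3. Slfn4 had signals of 107.5, 145 and 225 in LPS and 37.3, 21.1 and 39.1 in luteolin + LPS, and the arrays were apart. Its log2 fold change was -2.28 ± 0.26 (SE, adjusted p = 0.0063), and -1.96 without replicate 2. Slfn5 had a log2 fold change of -2.41 (adjusted p = 0.021), -1.80 without replicate 2 (adjusted p = 0.029) and -1.29 as the mean of its 3 probe sets.

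Among guanylate-binding proteins and immunity-related GTPases, which attack vacuoles and membranes of intracellular pathogens, the 8 tested genes ran from -3.15 to -0.95 on the log2 scale around a median of -2.02, and 2 were called lower, against 2.84% of all genes. The medians by replicate number were -0.82, -3.06 and -1.52, and without luteolin + LPS replicate 2 the median was -1.17 and 1 gene was called. Gbp6 had signals of 514, 216 and 422 in LPS and 115, 19.1 and 80.5 in luteolin + LPS, with no overlap, a log2 fold change of -2.68 ± 0.34 (SE, adjusted p = 0.0068) and -2.15 without replicate 2 (adjusted p = 0.013). Gbp3, whose start carries both overlapping interferon response matches shown above, had signals of 3581, 1143 and 2142 in LPS. Its joint signals were 832, 44.3 and 342, and the lowest, in replicate 2, was at the control mean of 45.2. The log2 fold change of Gbp3 was -3.15 with all arrays (adjusted p = 0.044) and -2.09 without replicate 2, where it was not called (adjusted p = 0.093). Ifi209, of the interferon-inducible p200 family, gave -2.53 (adjusted p = 0.040) and -2.09 (adjusted p = 0.13). The predicted gene Gm9706 fell from 1106, 385 and 883 in LPS to 215, 81.1 and 137, a log2 fold change of -2.43 ± 0.25 (SE, adjusted p = 0.0041) that was -2.28 without replicate 2.

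Calls in the signalling lists were near the share over all genes, of which 2.84% were lower. Of 22 genes for interferon regulatory factors, STATs, JAKs and interferon receptors, 1 was lower, and the list median was -0.14. That gene, Stat5a, which carries cytokine receptor signals to the nucleus, went from 568, 504 and 573 in LPS to 395, 233 and 387, a log2 fold change of -0.73 (adjusted p = 0.032) that was -0.53 without replicate 2 (adjusted p = 0.059). Of 20 Toll-like receptor and adaptor genes, Tlr1 alone was called. This partner of Tlr2 in lipopeptide sensing had signals of 595, 337 and 486 in LPS and 185, 69.4 and 256 in luteolin + LPS, a log2 fold change of -1.63 (adjusted p = 0.036) and of -1.14 without replicate 2 (adjusted p = 0.069). The list median of the Toll-like receptor genes was -0.03.

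Cytokine genes moved in both directions. Of 21 tested, 2 were lower and 1 higher, with a median of -0.83, and the medians by replicate number were -0.94, -1.19 and -0.17. The list median was -0.39 without luteolin + LPS replicate 2, with 1 lower and no higher gene. Of all genes, 2.84% were lower and 1.95% higher. Il1rn encodes the antagonist of the interleukin 1 receptor. Its signals were 3111, 3859 and 5579 in LPS and 285, 360 and 1037 in luteolin + LPS, with no overlap, and its log2 fold change was -3.10 ± 0.30 (SE, adjusted p = 0.0041), or -2.78 without replicate 2 (adjusted p = 0.013). Il1a, an agonist of the same receptor, fell from 436, 326 and 447 to 110, 37.9 and 198, a log2 fold change of -2.09 (adjusted p = 0.028) and of -1.52 without replicate 2 (adjusted p = 0.054).

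Ccl12, a chemokine that attracts monocytes and is not among these 21, had signals of 1471, 157 and 153 in LPS and 30.2, 16.7 and 53.2 in luteolin + LPS. The LPS array of replicate 1 was far above the other two. The log2 fold change of -3.45 ± 0.83 (SE) passed the threshold narrowly (adjusted p = 0.049), was not called without luteolin + LPS replicate 2 (-3.09, adjusted p = 0.16), and was -2.68 with signals under 50 set to 50. In the other direction, Csf3, the granulocyte colony-stimulating factor, rose from 79.6, 62.4 and 61.3 in LPS to 105, 179 and 359 in luteolin + LPS. The groups did not overlap, which was a condition of its choice, and the log2 fold change was 1.49 ± 0.35 (SE, adjusted p = 0.044) and 1.52 without replicate 2 (adjusted p = 0.12).

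NF-kappaB subunits, feedback inhibitors and survival targets showed no common direction, with a median of -0.21 over 19 genes and of 0.12 in replicate number 3. Map3k8, the kinase that feeds Toll-like receptor signals into the ERK pathway, was the 1 gene called, against 1.95% of all genes higher. It rose evenly, from 131, 125 and 113 to 216, 205 and 180, a log2 fold change of 0.70 (adjusted p = 0.035) and of 0.65 without replicate 2 (adjusted p = 0.11). Nfkbid, a nuclear inhibitor of NF-kappaB outside that list, rose from 273, 231 and 195 in LPS to 430, 897 and 416, by 1.24 on the log2 scale (adjusted p = 0.035) and by 0.88 without replicate 2 (adjusted p = 0.073).

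Of 11 genes for acute phase proteins and protease inhibitors, 10 were below 0 with a median of -1.78, and 4 were called lower, against 2.84% of all genes. Without replicate 2, 2 were called and the median was -1.31. The list was written with earlier results of these data known, so its share of calls is not independent of them. Serpinb1a, an inhibitor of neutrophil proteases, fell from 4423, 2741 and 3462 in LPS to 1097, 607 and 956 in luteolin + LPS. Its log2 fold change was -2.02 ± 0.30 (SE, adjusted p = 0.014), and -1.78 without replicate 2 (adjusted p = 0.052). Its mean signal was 7869 in control cells, above both LPS groups. Hp, the haemoglobin scavenger haptoglobin, had signals of 1058, 3082 and 2141 in LPS and 259, 230 and 1415 in luteolin + LPS, so the groups overlapped, and its log2 fold change of -2.12 (adjusted p = 0.040) was -1.47 without replicate 2 (adjusted p = 0.088). Saa1, serum amyloid A, was near background throughout, and its log2 fold change of -1.81 was -0.41 with signals under 50 set to 50. Cp, ceruloplasmin, a copper-carrying ferroxidase named after its values were seen, missed the threshold with all arrays (-2.26, adjusted p = 0.051) and passed it without replicate 2 (-1.31, adjusted p = 0.013).

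Cfb, complement factor B of the alternative pathway, was the 1 complement gene called of 10 tested, against 2.84% of all genes lower. It fell from 824, 280 and 275 in LPS to 76.3, 43.0 and 59.4, near its control mean of 37.3. The log2 fold change was -2.78 ± 0.28 (SE, adjusted p = 0.0041) with all arrays and -2.69 without replicate 2 (adjusted p = 0.021), and it was called in 20 of 23 alternative analyses. Nos2, the inducible nitric oxide synthase, was the 1 gene called of 14 itaconate, nitric oxide, arginine and oxidase genes (2.84% of all genes were lower). Its signals of 335, 201 and 163 in LPS and 79.0, 50.6 and 112 in luteolin + LPS did not overlap, with a log2 fold change of -1.54 (adjusted p = 0.031), or -1.28 without replicate 2 (adjusted p = 0.099).

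Surface receptors of the SLAM family and their neighbours in the list, which tune contacts between immune cells, had a median of -1.40. All 7 genes were below 0, 4 were lower by the test, against 2.84% of all genes, and the medians by replicate number were -1.78, -1.57 and -0.96. This list joins receptors of different families and was written with earlier results of these data known, so its share of calls is not independent of them. Without replicate 2, 2 were called and the median was -1.23. Slamf7 had signals of 1333, 271 and 354 in LPS and 196, 31.8 and 50.8 in luteolin + LPS, a log2 fold change of -2.89 ± 0.36 (SE, adjusted p = 0.0068) and of -2.57 without replicate 2 (adjusted p = 0.029). Its LPS level was highest in replicate 1, and the log2 difference within the 3 numbers was -2.77, -3.09 and -2.80. Cd72, an inhibitory receptor, fell from 1505, 939 and 1418 to 341, 269 and 674, a log2 fold change of -1.67 (adjusted p = 0.011), or -1.50 without replicate 2 (adjusted p = 0.043). Slamf8 was under 50 signal units in luteolin + LPS on all 3 arrays, and its log2 fold change of -1.83 was -0.58 with signals under 50 set to 50. It was not called without replicate 2 (adjusted p = 0.067).

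Of 19 genes listed for disease-associated microglia, 4 were lower, against 2.84% of all genes, at a list median of -0.12. Without replicate 2, 2 were lower. Acp5, the tartrate-resistant acid phosphatase of osteoclasts and activated macrophages, had signals of 301, 296 and 234 in LPS and 57.9, 45.5 and 75.9 in luteolin + LPS. The control mean was 42.3, and the log2 fold change was -2.23 ± 0.21 (SE, adjusted p = 0.0041), or -2.04 without replicate 2 (adjusted p = 0.013). Cst7, the protease inhibitor cystatin F, fell from 4625, 3458 and 3280 to 1317, 838 and 1564, a log2 fold change of -1.64 (adjusted p = 0.018), or -1.38 without replicate 2 (adjusted p = 0.058). In resting cells Cst7 had a mean of 1227 in luteolin and 2674 in control, a log2 difference of -1.12 that did not pass the test (adjusted p = 0.11).

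Of 18 microglial identity genes tested, Aif1, which encodes the actin-binding microglial marker Iba1, was the 1 called, against 2.84% of all genes lower. Its signals were 436, 182 and 141 in LPS and 60.0, 33.5 and 106 in luteolin + LPS, with a log2 fold change of -1.90 (adjusted p = 0.046), or -1.50 without replicate 2 (adjusted p = 0.15). Of 9 MHC class II and costimulation genes tested, 7 were below 0 with a median of -0.71, or -0.17 without replicate 2. With all arrays 1 was called lower and 1 higher, against 2.84% and 1.95% of all genes. Cd86, a costimulatory ligand of T cells, was lower by 0.71 on the log2 scale (adjusted p = 0.047), and by 0.38 as the mean of its 2 probe sets, and was not called without replicate 2 (-0.51, adjusted p = 0.13), whereas Cd83, which stabilises MHC class II and CD86 at the surface, was higher. Cd83 had signals of 1710, 530 and 588 in LPS and 3242, 1292 and 2582 in luteolin + LPS, which overlap because replicate 1 was high in both groups. Within each number it rose, and the log2 fold change was 1.45 ± 0.21 (SE, adjusted p = 0.012), or 1.46 without replicate 2 (adjusted p = 0.043). Of 15 MHC class I loading and immunoproteasome genes, 14 were below 0 with a median of -0.20, and 1 was called, against 2.84% of all genes lower. It was Mr1, which presents vitamin B metabolites to T cells, lower by 1.02 on the log2 scale (adjusted p = 0.047). Msr1, a scavenger receptor, was lower by 0.67 (adjusted p = 0.049). Neither Mr1 nor Msr1 was called without replicate 2 (adjusted p = 0.14 and 0.13).

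The NRF2 and antioxidant list held 8 higher genes of 24 tested (1.95% of all genes were higher) and no lower one, and 21 of the 24 were above 0 with a median of 0.46. The geometric mean signal of the list was 2453, 1709 and 1604 in LPS and 2661, 2674 and 2706 in luteolin + LPS, so the 3 joint arrays were nearly equal and above all LPS arrays. The median difference was 0.11 for replicate number 1, in which the LPS array was already high, and 0.66 and 0.67 for numbers 2 and 3. Without luteolin + LPS replicate 2 the median was 0.46 as well, and none of the 24 was called.

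Enzymes of glutathione supply led the list. Gclm, the modifier subunit of the enzyme that starts glutathione synthesis, had signals of 1737, 576 and 424 in LPS and 2329, 2394 and 1623 in luteolin + LPS, with an overlap through LPS replicate 1. Its log2 fold change was 1.47 ± 0.28 (SE, adjusted p = 0.027), or 1.28 without replicate 2 (adjusted p = 0.097). Gsr, which reduces oxidised glutathione, rose from 518, 418 and 346 to 834, 1330 and 882 with no overlap, by 1.24 on the log2 scale (adjusted p = 0.018), or by 1.04 without replicate 2 (adjusted p = 0.057). Blvrb, a biliverdin reductase that acts after haem breakdown, rose from 3991, 1342 and 1240 to 4849, 3069 and 3719, by 1.02 on the log2 scale (adjusted p = 0.034) and was not called without replicate 2 (adjusted p = 0.10). The other 5 higher genes of the list, named after their values were seen, were Idh1 (0.94) and Pgd (0.74), which supply NADPH, Nqo1 (0.85), a quinone reductase, Gclc (0.61), the catalytic partner of Gclm, and Txnrd1 (0.60), a thioredoxin reductase, on the log2 scale.

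Gsta3, a glutathione S-transferase outside that list, had signals of 75.4, 35.1 and 26.1 in LPS and 205, 79.7 and 114 in luteolin + LPS, and a log2 fold change of 1.59 (adjusted p = 0.024), or 1.10 with signals under 50 set to 50. Gstm6, of a different transferase class, went the other way, from 72.4, 62.4 and 76.0 to 32.6, 25.4 and 36.1. Its log2 fold change of -1.17 ± 0.11 (SE, adjusted p = 0.0040) was called without replicate 2 as well (-1.09, adjusted p = 0.013), but was -0.49 with signals under 50 set to 50.

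Fatty acid, phospholipid and LXR target genes included 5 higher genes of 23, against 1.95% of all genes, and no lower one, with a median of 0.29. Without replicate 2, 3 were called. Earlier results of these data were known when the list was written, so its share of calls is not independent of them. Rnf145, which tags sterol pathway proteins of the endoplasmic reticulum with ubiquitin, had the largest increase among the tested genes. Its signals were 348, 961 and 788 in LPS and 1850, 3999 and 1944 in luteolin + LPS, with no overlap. The log2 fold change was 1.92 ± 0.24 (SE, adjusted p = 0.0068), or 1.74 without replicate 2 (adjusted p = 0.029). Fasn, the fatty acid synthase, rose from 679, 1143 and 1134 to 1465, 2767 and 2165, by 1.11 on the log2 scale (adjusted p = 0.0064), or by 0.97 without replicate 2 (adjusted p = 0.021). Lpcat1, which remodels phosphatidylcholine, rose by 1.33 (adjusted p = 0.033) and was not called without replicate 2 (adjusted p = 0.098). In the cholesterol synthesis list, 1 of 21 genes was called, against 2.84% of all genes lower and 1.95% higher. It was Insig2, which holds the sterol sensor SCAP in the endoplasmic reticulum, and it was lower by 0.90 on the log2 scale (adjusted p = 0.043) with overlapping groups, and not called without replicate 2 (-0.95, adjusted p = 0.10).

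Nupr1, a stress-induced chromatin regulator whose promoter match is shown above, was the 1 gene called of 39 in the integrated stress response list, a share near the 2.84% lower among all genes. Its signals were 3789, 3098 and 3641 in LPS and 1298, 322 and 1103 in luteolin + LPS, a log2 fold change of -2.18 ± 0.33 (SE, adjusted p = 0.015) that was -1.65 without replicate 2 (adjusted p = 0.015). Its mean was 1321 in control and 512 in luteolin alone, and the list median was 0.01. No gene was called among 43 of DNA replication, 36 of mitosis, 38 of the lysosome, 32 of the proteasome, 24 cytosolic ribosomal proteins, 17 clock genes, 9 of alternative activation and 3 targets of the aryl hydrocarbon receptor. The medians of these lists lay between -0.25 and 0.22, and that of DNA replication moved from 0.09 to -0.22 without replicate 2.

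Among regulators of cell death, Bcl2l11, which encodes the death-promoting BH3 protein Bim, rose from 580, 1498 and 1451 to 1632, 3290 and 3028, by 1.23 on the log2 scale (adjusted p = 0.033), or by 1.21 without replicate 2 (adjusted p = 0.10). Bcl2, the survival protein that Bim binds, was lower by 0.94 (adjusted p = 0.048) with overlapping groups, by 0.44 as the mean of its 5 probe sets, and was not called without replicate 2 (-0.80, adjusted p = 0.16). Gadd45g, a growth arrest gene, had a log2 fold change of -1.74 (adjusted p = 0.043) and Dusp14, a MAP kinase phosphatase, of -1.67 (adjusted p = 0.047), both uncalled without replicate 2 (adjusted p = 0.13 and 0.15). The immediate early gene Nr4a1, an orphan nuclear receptor, rose evenly from 303, 347 and 280 to 638, 674 and 733, by 1.14 on the log2 scale (adjusted p = 0.024) and by 1.30 without replicate 2 (adjusted p = 0.043).

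Several receptors and transporters rose with and without replicate 2. Il6ra, the interleukin 6 receptor, went from 61.4, 101 and 80 in LPS to 139, 280 and 162, below its control mean of 367 in every array, by 1.22 on the log2 scale (adjusted p = 0.0068) by 1.03 without replicate 2 (adjusted p = 0.021), and by 0.81 as the mean of its 2 probe sets. Ptprj, a receptor tyrosine phosphatase, went from 118, 198 and 115 to 373, 327 and 385, by 1.38 on the log2 scale (adjusted p = 0.012), and by 0.90 as the mean of its 4 probe sets. Kdr, the main VEGF receptor, and its co-receptor Nrp1 were the 2 higher genes of 20 in the VEGF, neuropilin, plexin and semaphorin list. The list median was 0.03, and 1.95% of all genes were higher. Kdr rose from 289, 895 and 670 to 916, 1607 and 1432, a log2 fold change of 1.20 (adjusted p = 0.017), and Nrp1 rose from 981, 1100 and 1147 to 1996, 1836 and 1911, a log2 fold change of 0.83 (adjusted p = 0.0068). Without replicate 2 they were 1.28 and 0.83 (adjusted p = 0.043 and 0.029). Slc16a3, which exports lactate, rose by 1.12 (adjusted p = 0.0041), and by 1.16 without replicate 2 (adjusted p = 0.019).

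**Figure D3:**
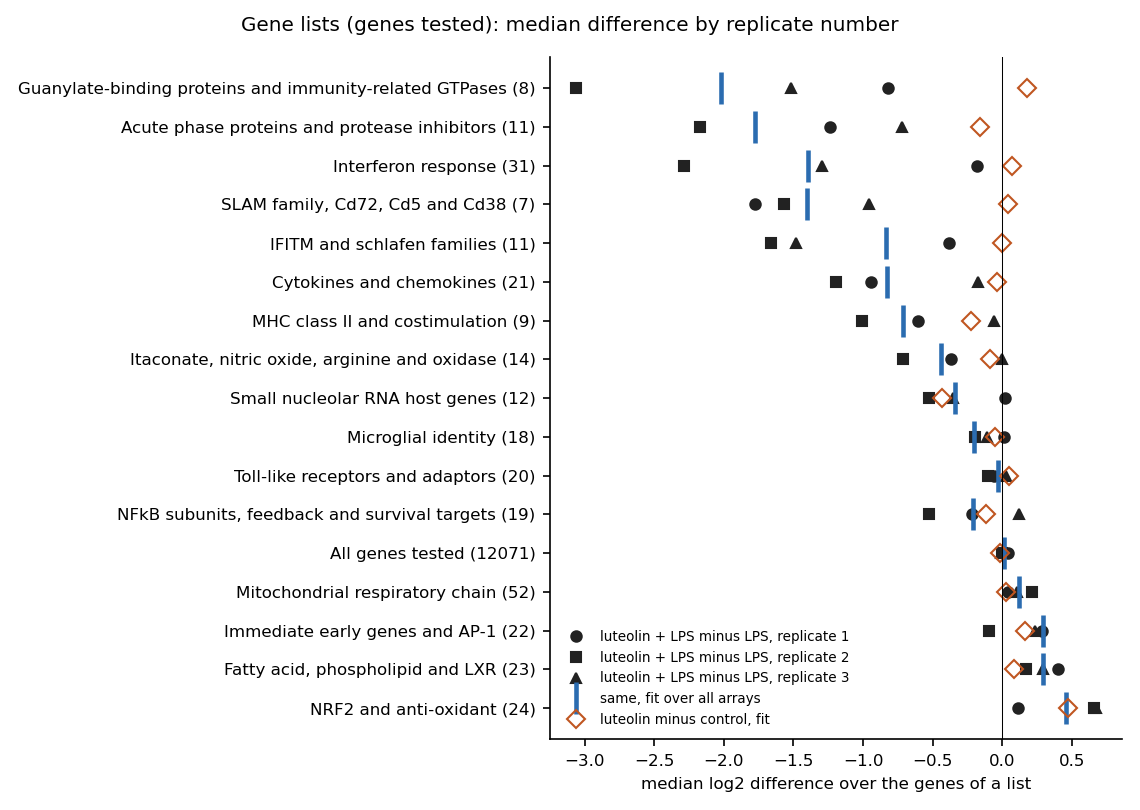
Median log2 difference over the tested genes of 16 lists and of all genes, with the number of genes in brackets. Black symbols give luteolin + LPS minus LPS for replicate numbers 1 to 3, blue bars the fit over all arrays and open orange diamonds luteolin minus control; most immune lists lie left of 0 with LPS, with replicate 2 mostly the lowest, and the median of the NRF2 list lies right of 0 in both states.

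Luteolin also changed genes in resting cells, where 34 genes were called (0.282%, either direction). This comparison shares no array with luteolin + LPS versus LPS. Of the 343 genes lower with LPS, 306 were below 0 in resting cells too, against 52.9% of all genes tested, and 248 were below 0 for all 3 replicate numbers. Of the 235 higher genes, 220 were above 0 in resting cells, where 52.9% of all genes tested were below 0, and 184 were so for all 3 numbers. The share of all genes with 1 sign in all 3 resting numbers was not computed. The counts of 248 and 184 therefore have no background beside them. The median resting difference was -0.37 over the lower and 0.32 over the higher genes. Called in both states were 17 lower and 6 higher genes. The lower ones had log2 fold changes of -1.60 to -0.45 with LPS and -1.58 to -0.58 without, and the higher ones of 0.50 to 1.92 and 0.54 to 1.70.

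These genes called in both states were named because of their calls, after their values were seen. Snhg1, the host of several small nucleolar RNAs, led the lower ones, with signals of 3899, 4760 and 5454 in LPS and 1243, 1423 and 2049 in luteolin + LPS, and means of 3204 in control and 1421 in luteolin. Its log2 fold change was -1.60 ± 0.14 (SE, adjusted p = 0.0040) with LPS, -1.51 without replicate 2 (adjusted p = 0.013) and -1.17 in resting cells (adjusted p = 0.025). Snhg12 and Snhg5, of the same kind, had log2 fold changes of -1.97 and -0.94 with LPS (adjusted p = 0.038 and 0.047). In all, 3 of 12 small nucleolar RNA host genes were called lower, against 2.84% of all genes, and 1 without luteolin + LPS replicate 2. The list median was -0.34 with LPS and -0.44 in resting cells. The mean of the 3 probe sets of Snhg5 gave -0.36.

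Rbmx, an RNA-binding splicing regulator, fell from 653, 453 and 710 to 276, 165 and 221 with LPS, with log2 fold changes of -1.46 (adjusted p = 0.0063) and, in resting cells, -1.58 (adjusted p = 0.015). Its 4 probe sets disagreed, since their mean gave -0.43. Diaph2, a formin that nucleates actin filaments, fell from 600, 706 and 589 to 171, 233 and 260, with -1.53 (adjusted p = 0.0068) and, in resting cells, -1.28 (adjusted p = 0.049). The pairs of values were -1.37 and -1.04 for Ctnnd2, a delta catenin, -1.28 and -1.06 for Inpp4b, a phosphoinositide phosphatase, and -0.86 and -0.69 for Slc39a10, a zinc importer. The probe sets of Inpp4b disagreed, with a mean of -0.58 with LPS. The higher genes were Rnf145 (1.92 with LPS, 1.70 in resting cells), Cdc42se1 (0.82 and 0.54), Slc11a1, the metal transporter of phagosomes (0.71 and 0.86), Glipr1 (0.62 and 0.82, or 0.24 with LPS as the mean of its 2 probe sets), Pgbd5 (0.59 and 0.88) and Trappc1 (0.50 and 0.75).

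No gene had a luteolin difference that differed between LPS-treated and resting cells after adjustment (interaction in limma), and 798 had an unadjusted p under 0.05. In size, 147 interactions were below -1 and 15 above 1. The smallest p were those of Cfb (-2.98), Acp5 (-2.19), Gstm6 (-1.10), Il1rn (-3.13) and Gm9706 (-2.52), each with an adjusted p of 0.093. In resting cells their log2 fold changes lay between -0.07 and 0.20, at mean control signals of 37.3 for Cfb, 42.3 for Acp5, 32.7 for Gstm6, 151 for Il1rn and 69.0 for Gm9706. Cfb, Acp5 and Gstm6 were thus under 50 signal units without LPS. With LPS replicate 1 left out 3 interactions were called, and with signals under 50 set to 50 it was 2.

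**Figure D4:**
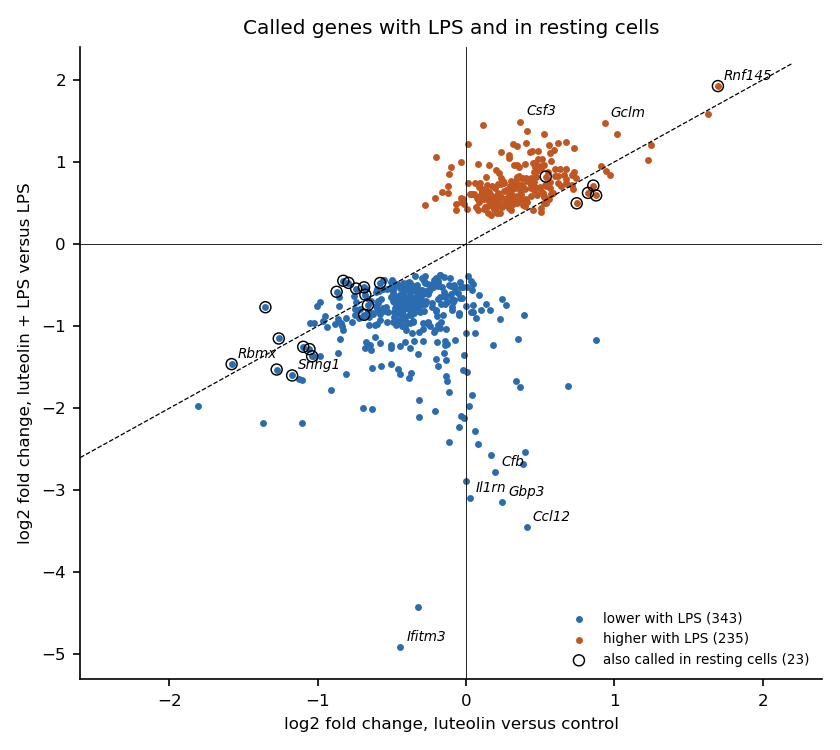
Log2 fold change of the 578 called genes in resting cells (luteolin over control, x axis) and with LPS (luteolin + LPS over LPS, y axis), blue for lower and orange for higher genes, rings for the 23 genes called in both states, dashed line for equal values. Most points share their sign in both states, and the largest decreases with LPS lie near 0 on the x axis. Several of these genes, Ifitm3, Gbp3 and Cfb among them, had control means near or under 50 signal units, so a decrease in resting cells could hardly be measured.

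The lower genes differed from the higher genes in how much of the genome they span. This property was examined after the calls were seen and is described with no test. The span from the start to the end of each gene in the RefSeq table of GRCm38.p6 was known for 12016 of the 12071 genes tested, including 342 of 343 lower and all 235 higher genes. The median span was 33.8 kb for lower, 15.9 kb for higher and 22.0 kb for all genes. The gap was narrower without luteolin + LPS replicate 2, at 24.3 kb for the 76 lower and 20.9 kb for the 35 higher genes. The share of lower genes rose with the span, from 119 of 5636 genes under 20 kb (2.11%) to 42 of 938 genes of 100 to 200 kb (4.48%) and 53 of 454 genes over 200 kb (11.7%), while that of higher genes declined from 136 (2.41%) to 4 (0.43%) and 2 (0.44%). Without luteolin + LPS replicate 2, the lower genes numbered 31 of 5636 under 20 kb, 14 of 3302 at 20 to 50 kb, 11 of 1686 at 50 to 100 kb, 6 of 938 at 100 to 200 kb and 14 of 454 over 200 kb, so their share rose over 200 kb and not in the classes below.

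Over all genes of a class, called or not, the median fell with span. It was 0.05 for genes under 20 kb, 0.02 at 20 to 50 kb, -0.02 at 50 to 100 kb, -0.09 at 100 to 200 kb and -0.17 over 200 kb, where 71.1% of the genes were below 0 against 46.9% of all. For genes over 200 kb, the median was -0.08, -0.31 and -0.16 for replicate numbers 1, 2 and 3, and in resting cells it was -0.26, -0.14 and -0.15, so all 6 values were negative and the longest class was the lowest in each. Without luteolin + LPS replicate 2 the median of this class was -0.15, and no higher gene was called in it. LPS itself left this class at 0.01 relative to control.

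Signal level and probe sets moved with span. The median signal over all arrays was 250 for genes over 200 kb and 438 for all, and the median difference was -0.28 for the 157 genes over 200 kb at or above the median signal of all genes and -0.11 for the 297 below it. Genes over 200 kb with a single probe set (75) had a median of -0.18, and the mean of probe sets gave -0.13. Whether the probe sets of long genes lie in exons or introns was not tested. Examples, named after their values were seen, are Prkg1 (1201 kb), a cGMP-dependent kinase with a log2 fold change of -1.66, Exoc4 (725 kb), an exocyst subunit with -0.71, and Cdkal1 (664 kb), a tRNA-modifying enzyme with -0.75. Wwox (913 kb), a tumour suppressor, had -0.81, and -0.43 as the mean of its 4 probe sets. Lpp (599 kb), a focal adhesion protein, had -1.37, and -0.88 without luteolin + LPS replicate 2. Of the 17 genes lower in both states, 7 spanned over 200 kb, against 53 of 342 lower genes and 454 of all 12016. Among the 7 were Diaph2, Ctnnd2, Inpp4b and Agap1. Agap1 had -1.15 with LPS, and -0.51 as the mean of its 4 probe sets.

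**Figure D5:**
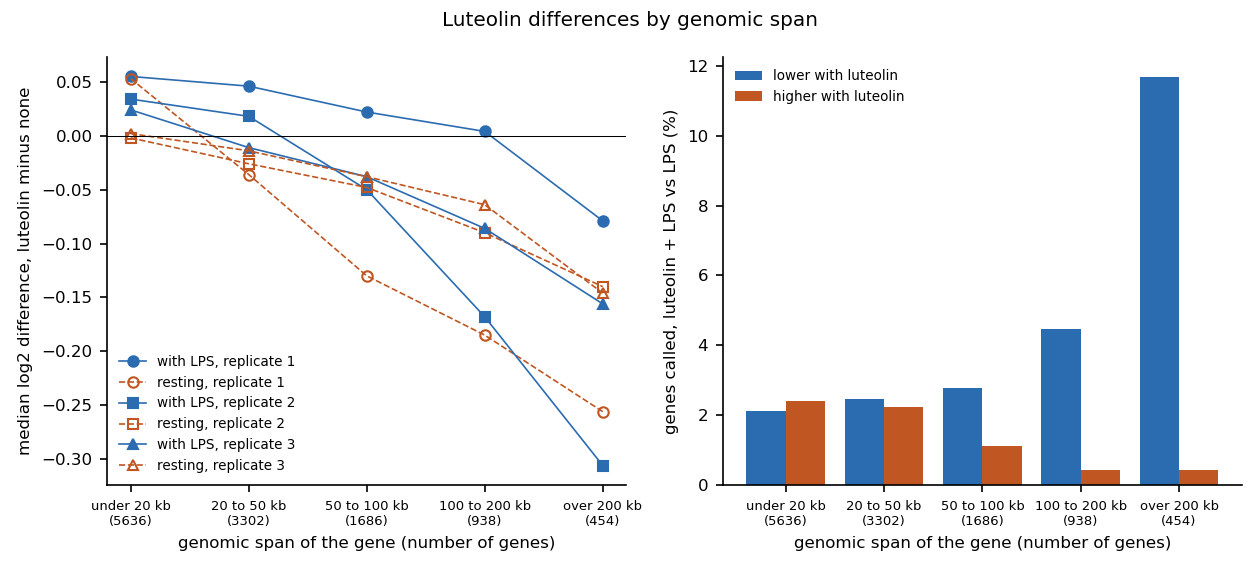
Left, median log2 difference of luteolin minus no luteolin in 5 classes of genomic span for replicate numbers 1 to 3, with LPS (blue, solid) and in resting cells (orange, dashed). Right, percent of genes in each class called lower (blue) or higher (orange) in luteolin + LPS than in LPS; the share of lower genes is 11.7% over 200 kb and 2.11% under 20 kb.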

How the data were processed

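RNA of BV-2 cells was profiled on Affymetrix mouse whole-genome arrays, 3 per condition. The authors deposited linear signal intensities, summarised per probe set with RMA, which subtracts background, quantile-normalizes all arrays and fits each probe set. Scans were not used here. Array number and not depth limits the precision. Of 45101 probe sets, 34958 had 1 gene in the platform annotation, 932 several and 9211 none named here. Each gene was represented by its brightest probe set (mean log2 intensity over all arrays), and 12071 of 18194 genes with a geometric mean of 50 or more in at least 1 of 4 conditions were tested, a minimum that follows the authors. Log2 values were fitted in limma 3.58.1 (R 4.3.3) with 4 group means and the replicate number as block over all 12 arrays, which stands in for the authors' single-probe test. P-values were adjusted over all 12071 genes after Benjamini and Hochberg, with a threshold of 0.05. The fit was tested on simulated data.

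Titles give the replicate numbers, and the methods describe 3 experiments with all conditions. Deviations from the group means of all 18 same-numbered pairs correlated positively (0.101 to 0.591, median 0.42), against a median of -0.295 for different numbers. With the replicate number as block, shifts shared by all arrays of a number are removed before the error is estimated. P-values therefore rest on the spread that remains, pooled over all arrays, resting cells included. This spread is how far the differences between conditions vary from experiment to experiment on 1 cell line.

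Genes were chosen by rule, and not every gene so chosen is named in the text. The rules took up to 12 per direction with the largest change among called genes with non-overlapping arrays. They took up to 3 called genes per direction of each of 46 gene lists (2 genes where none was called). They also took up to 6 per direction in the fit without luteolin + LPS replicate 2, and the 5 with the smallest interaction p. Other names were chosen after their values were seen and are given as such. The comparison, lists and tests were chosen with earlier results of these data known. Lists are described by counts and medians, with no test. The share of a list that was called, set beside that of all genes, is a description and no evidence of enrichment. Alternatives were no or a random replicate block, only the 6 arrays compared, array weights, other signal filters, a floor of 50, the mean of probe sets, and leaving out each array or each number. Promoters and gene spans come from RefSeq, GRCm38.p6.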

Additional observations from a re-analysis of the deposited data

How the results depend on the processing

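Named genes were mostly chosen for called changes, and alternatives that change only the error, the filter or the resting arrays leave their fold change nearly or wholly as it is, so a kept direction is no sign of stability. The recomputed values cover chosen genes that the text does not name as well. Among them, 1812 kept sign and call, 12 gained a call, 1108 lost one and 3 changed sign. The 3 were of uncalled genes. Kif11 (0.63) ranged from -0.018 without LPS replicate 1 to 1.013 without LPS replicate 3. Tiparp (-0.25) ranged from -0.648 without replicate number 3 to 0.011 without luteolin + LPS replicate 2, and was 0.156 with array weights. Lower and higher genes numbered 343 and 235. They were 43 and 18 with no replicate block, 4 and 0 with only the 6 arrays compared (2 residual degrees of freedom), and 640 and 371 with array weights, whose estimation stopped before convergence. Leaving out 1 array gave 46 to 416 lower and 14 to 235 higher genes, and leaving out all arrays of a replicate number gave 1 to 405 lower and 0 to 212 higher genes, the smallest without numbers 2 and 3. Without luteolin + LPS replicate 2, where 76 and 35 were called, no replicate block gave 16 and 4, the 5 arrays compared alone 3 and 0, and array weights 332 and 164. The interaction gave 0 genes, 9 with array weights, 2 with signals under 50 set to 50, and 0 to 3 when 1 array was left out. The random block, filters, probe set mean and floor kept both counts within 1.5 times. The causes were not tested. The median of genes over 200 kb stayed between -0.28 and -0.12 under 25 alternatives, which were added after seeing the data. Signals under 50 limit folds of genes at background in 1 group.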
